A study of Danio rerio with 16 samples.

Results

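The acidic chitinase genes of zebrafish are those whose name in the deposited FPKM tables is chia followed by a dot and a number. This rule found 3 genes, chia.3, chia.4 and chia.6, among 32313 genes, and their read counts were joined by gene ID. The family was chosen by the measured chia.3 level in 5-day larvae against 24 hpf embryos, so the members' values in that contrast are given as a description with no test. RefSeq's annotation of the GRCz12tu assembly names 6 genes of this kind, chia.1 to chia.3 side by side on chromosome 11 and chia.4 to chia.6 side by side on chromosome 23, with 0 other genes between them in either cluster. The Ensembl IDs of chia.1, chia.2 and chia.5 are absent from both annotations used here, so these genes have no values under those IDs.

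RNA of wild-type zebrafish of the AB strain was sequenced in 5 groups. Adult tail, adult head and 5-day larva had 1 library each, made from the entire tail, the entire head and whole larvae. The embryo pool, also 1 library of whole embryos, is titled 16-36 hpf (hours post fertilisation), while its stage label runs from 16 somites to 24 hpf. The 24 hpf embryos, whole embryos in 3 biological samples, were the only group with replicates. No transgene, mutation or treatment is labelled in any group, and the sex of the adults and the number of animals behind a library are not stated in the labels.

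Acidic chitinases are secreted enzymes of glycosyl hydrolase family 18, which cut chitin, the polymer of N-acetylglucosamine in crustacean and insect shells and in fungal walls. In mouse and human the CHIA gene is known for its expression in stomach and lung, where the enzyme takes part in digesting chitin-bearing food and in the response to inhaled chitin. Zebrafish have no stomach, and fishes carry several copies of the gene.

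Reads counted on genes came to 8376307 in tail, 8017208 in head, 8532429 in larva and 11045403 in the pool, against 40899061 to 44962951 in the 24 hpf libraries. Levels are given as CPM, the read count relative to library size after scaling libraries by trimmed mean of M values, or as the authors' deposited FPKM, which also divide by gene length and so allow levels of different genes to be set side by side. At 3 counts, taken as the limit of detection in a library, the level was 0.337 CPM in tail, 0.315 in head, 0.304 in larva and 0.273 in the pool, against 0.0828 to 0.0847 CPM at 24 hpf. Intervals given for ratios are exact 95% intervals and cover counting error only. Marker genes were set against the labels. Transcripts of the olfactory marker ompb were at 0 in tail and present in head. Digestive enzyme transcripts of the pancreas were present in both the tail and the head library. Ovary and oocyte markers, a list added after the patterns of the members were seen, summed to 4905 CPM in tail and 9.23 in head. The labels do not name these tissues, and the source of the ovary, oocyte and pancreas transcripts was not tested. In bulk samples, fewer cells of a type and less RNA per cell cannot be told apart.

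The gene chia.3 (ENSDARG00000009612, Zv9 chromosome 11, 25040783 to 25043717) was the most abundant member in tail, head and larva and was near the detection limit in embryos. It had 8473 counts, or 953 CPM, in tail. In head it had 1996 counts, or 209 CPM, and in larva 1348 counts, or 136 CPM. The pool held 4 counts, or 0.364 CPM. The 3 libraries of 24 hpf held 6, 2 and 6 counts, which is 0.168, 0.0552 and 0.169 CPM, with a mean of 0.131 ± 0.0655 (SD, n = 3). Tail, head and larva therefore stood above every embryo library by more than 2 orders of magnitude, and the pool and 24 hpf libraries were within a few counts of 0. In tail the gene took 0.101% of all gene counts (95% Wilson interval 0.0990 to 0.103) and ranked 163 of all genes by FPKM, against rank 509 in head and rank 790 in larva.

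The order of chia.3 levels was tail, head, larva, pool and 24 hpf embryos. Tail exceeded head 4.55-fold (4.34 to 4.78), and head exceeded larva 1.53-fold (1.43 to 1.64). Larva exceeded the pool 375-fold (146 to 1378). The pool and the 24 hpf libraries did not differ beyond counting error, with a ratio of 2.79 (0.669 to 8.89) of the pool over the 3 embryo libraries summed. Without replicates, none of the intervals between single libraries includes the spread between animals.

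**Figure D1:**
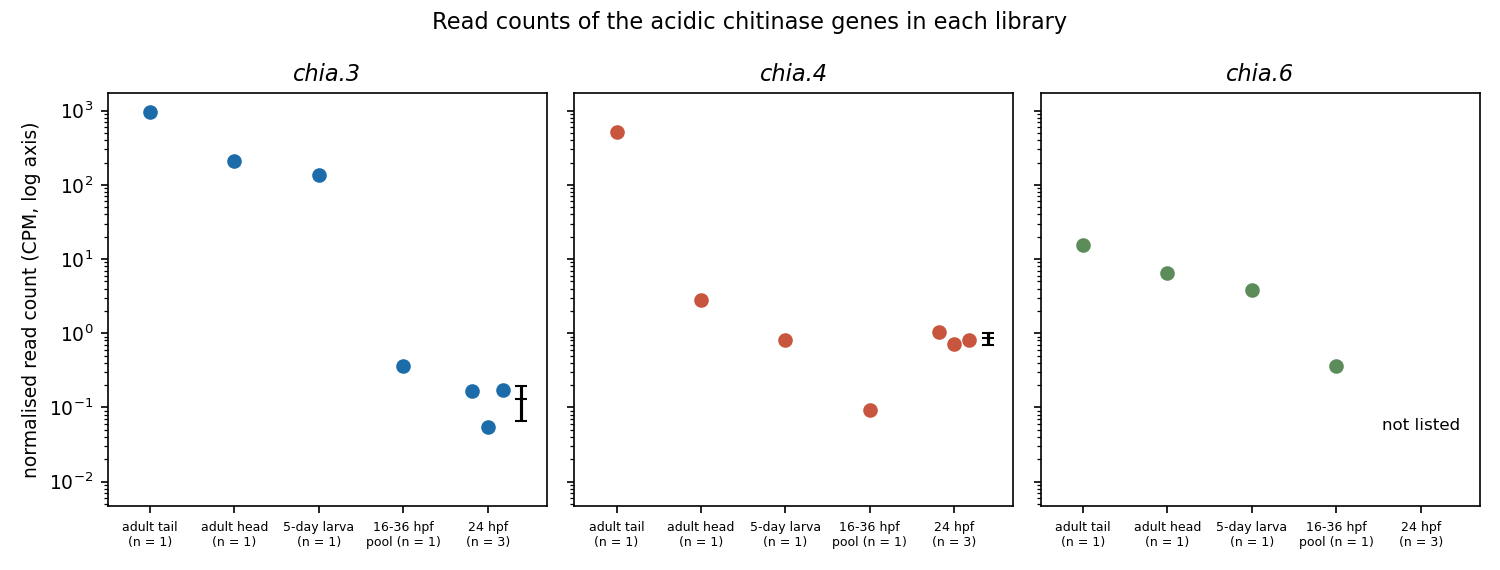
Normalised read counts (CPM, log axis) of chia.3, chia.4 and chia.6 in each of the 7 libraries, with the mean and SD of the 3 samples of 24 hpf beside their points. The chia.3 points of tail, head and larva lie between 136 and 953 CPM, while for chia.4 only the tail, at 517 CPM, lies above 3 CPM, and chia.6 is not listed in the 24 hpf files.

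The gene chia.4 (ENSDARG00000008541, Zv9 chromosome 23) was abundant in tail and scarce everywhere else. It had 4594 counts, or 517 CPM, in tail and ranked 325 by FPKM there. In head it had 27 counts, or 2.83 CPM, and in larva 8 counts, or 0.810 CPM. The pool held 1 count, or 0.0910 CPM, which is under its detection limit. The 24 hpf libraries held 37, 26 and 29 counts, or 1.04, 0.718 and 0.819 CPM, with a mean of 0.857 ± 0.162 (SD, n = 3). The tail library alone was high, and the larva value lay inside the range of the 24 hpf libraries, where the chia.4 ID covers a wider interval.

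Tail exceeded head 182-fold in chia.4 (125 to 277), against the 4.55-fold of chia.3, and the counting intervals of these ratios do not overlap. Tail exceeded larva 638-fold (323 to 1478). Head exceeded larva 3.49-fold (1.54 to 8.90). Under the chia.4 ID alone, larva and 24 hpf embryos were neighbours that did not differ beyond counting error, at a ratio of 0.945 (0.396 to 1.94). The 24 hpf interval of this ID also covers chia.6, and with chia.6 counts added in larva the ratio was 5.44 (3.73 to 7.83). The pool stood at 0.106 of the 24 hpf level (0.00266 to 0.607), a ratio that rests on 1 count in the pool. With chia.6 counts added in the pool that ratio was 0.531 (0.168 to 1.28).

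The annotated interval of chia.4 was not the same in all files. In the tables of tail, head, larva and pool it runs from 18096996 to 18118841 and spans 21845 bases. Next to it chia.6 (ENSDARG00000093193) runs from 18110324 to 18164381, spans 54057 bases and shares 8517 bases, 15.8% of its span, with chia.4. In the 24 hpf tables chia.6 is not listed, and the chia.4 ID, there named zgc:63792, runs from 18097178 to 18164380 and covers all but 1 base of the later chia.6 interval. Counts at 24 hpf under the chia.4 ID may therefore hold reads that the other tables place under chia.6, and reads in a shared stretch can be dropped as ambiguous. For chia.3, named zgc:55406 in the 24 hpf tables, both annotations give the same interval.

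**Figure D2:**
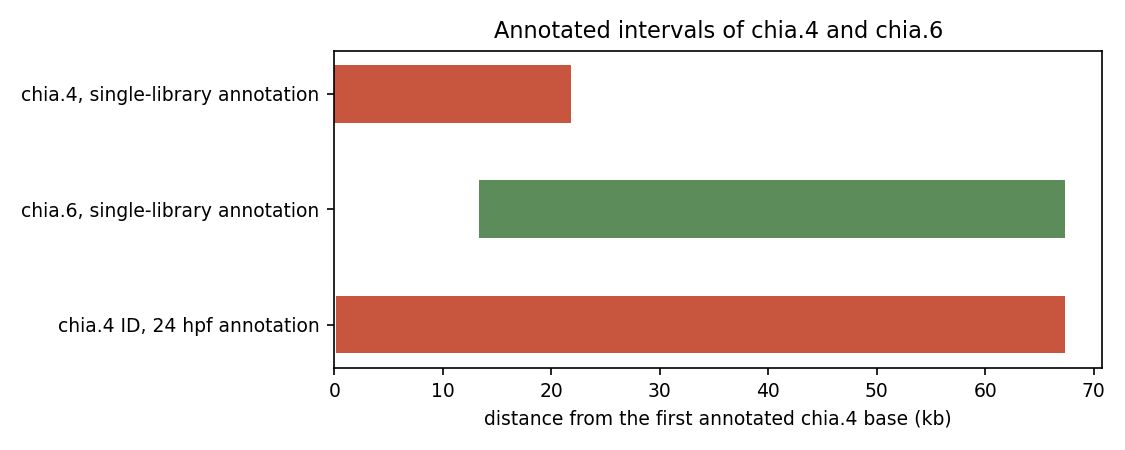
Annotated intervals of chia.4 and chia.6 in the files of the 4 single libraries (upper bars) and of the chia.4 ID in the 24 hpf files (lower bar), as distance in kb from the first annotated chia.4 base. The 24 hpf interval spans 67202 bases and covers nearly the whole of both single-library intervals.

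The gene chia.6 was the least abundant member in tail, and its values exist for the single libraries only. It had 139 counts, or 15.6 CPM, in tail. In head it had 62 counts, or 6.50 CPM, in larva 38 counts, or 3.85 CPM, and in the pool 4 counts, or 0.364 CPM. The order of the libraries was the same as for chia.3, and the head value was well above the detection limit. Tail exceeded head 2.40-fold (1.77 to 3.30), head exceeded larva 1.69-fold (1.11 to 2.60), and larva exceeded the pool 10.6-fold (3.81 to 40.8).

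The tail value of chia.6 depended on the unit. By deposited FPKM tail exceeded head 4.30-fold, against 2.40-fold by counts, while head over larva was 1.46 by FPKM and 1.69 by counts. The count scaled to the library's total gene counts, divided by FPKM, came to 1.07 for chia.6 in tail, against 2.15 in head and 1.81 in larva, while for chia.4 the quotient was 2.52 in tail and 2.48 in head. A low quotient was not particular to chia.6. For chia.3 it was 2.40 in tail, 2.55 in head and 2.41 in larva, but 1.44, 1.02 and 1.23 in the 24 hpf samples, from 6, 2 and 6 counts. For chia.4 in the pool it was 1.58, from 1 count. Ambiguous reads, which the counting leaves out, made up 1.90% of the tail library, against 1.08% in head and 0.849% in larva. Alignments that were not unique, also left out, made up 39.6% in tail, 30.2% in head and 24.9% in larva. In the pool they made up 23.4%, and at 24 hpf 14.2% to 27.6%. The part of either class in the members' values was not tested.

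Set side by side per gene length, the members had different proportions in different libraries. In tail chia.3 had 422 FPKM, chia.4 had 217 and chia.6 had 15.5, so chia.4 made up 33.2% of the members' summed FPKM. In head chia.3 had 97.8 FPKM, chia.4 had 1.36 and chia.6 had 3.59, and chia.3 made up 95.2% of the sum. In larva chia.3 had 65.5 FPKM, chia.4 had 0.413 and chia.6 had 2.46, with chia.3 at 95.8% of the sum. The level of chia.4 thus ranked above chia.6 in tail and below it in head and larva.

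The FPKM ratio of chia.3 over chia.6 was 27.3 in tail, 27.2 in head and 26.6 in larva, whereas that of chia.4 over chia.6 was 14.1 in tail, 0.378 in head and 0.168 in larva. By counts the pair was less even, with tail over head at 4.55 for chia.3 and 2.40 for chia.6. In the pool the members had 0.175 FPKM for chia.3, 0.0575 for chia.4 and 0.247 for chia.6, with authors' intervals that all reach 0. The pool ratio of chia.3 over chia.6 was 0.711. At 24 hpf chia.3 had 0.0998, 0.0479 and 0.108 FPKM and chia.4 had 0.356, 0.290 and 0.321 FPKM. There chia.4 was the higher of the pair in 3 of 3 samples, over an interval that includes that of chia.6.

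**Figure D3:**
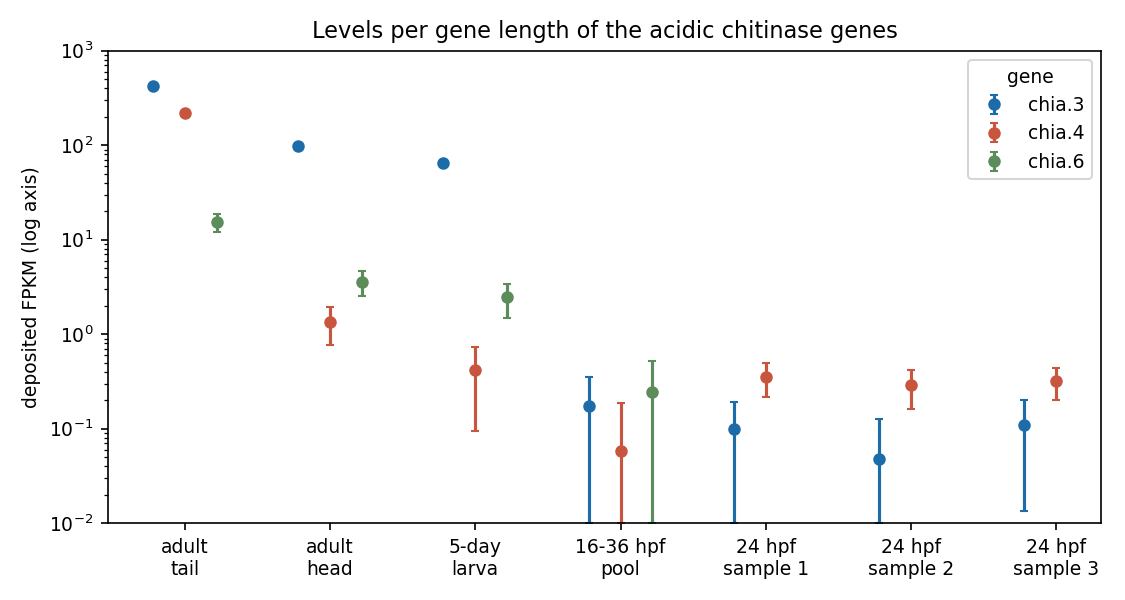
Deposited FPKM (log axis) of the 3 genes in each library, with the authors' interval as bars; interval ends below 0.01 are not drawn. The gene chia.4 stands at 217 FPKM in tail, above chia.6 at 15.5, and below chia.6 in head (1.36 against 3.59) and larva (0.413 against 2.46).

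Tests against the 24 hpf embryos asked which chitinase genes differed between adult body parts and embryos. They used edgeR's quasi-likelihood model over 21128 genes with Benjamini-Hochberg adjustment, and genes at an adjusted p under 0.05 were called. The 24 hpf libraries are also those of the larva contrast behind the choice of the family. The tests of chia.3 share them with it and are not independent of that choice. The spread comes from the 3 samples of 24 hpf alone, and each lone library is assumed to vary like them. Both chia.3 and chia.4 passed the read filter, which a single high library satisfies, and passed only through libraries outside 24 hpf. Their calls as higher therefore rest on the same high libraries as their entry into the test. With no read filter, 2 members were again called higher in tail and 2 in head, but from the same libraries, so this is no independent support. The gene chia.6 could not be tested for lack of a 24 hpf value.

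In tail 2 of 2 tested members were called higher, where 25.6% of all genes tested were called higher and 53.1% in either direction. The log2 change of chia.3 was 12.77 (SE 0.42, edgeR adjusted p 6.63e-06), at 953 CPM in tail against 0.131 ± 0.0655 CPM at 24 hpf. By counts this is 7308-fold (4353 to 13373), and by deposited FPKM 4938-fold. The log2 change of chia.4 was 9.23 (SE 0.30, edgeR adjusted p 6.63e-06), or 603-fold (491 to 749). With chia.6 counts added to those of chia.4 in the single libraries, to match the wider 24 hpf interval, the change was 9.27.

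In head 2 of 2 tested members were called higher, where 32.2% of all genes tested were called higher and 62.6% in either direction. The log2 change of chia.3 was 10.58 (SE 0.40, edgeR adjusted p 1.20e-05), or 1605-fold (954 to 2942). That of chia.4 was 1.72 (SE 0.36, edgeR adjusted p 0.00524), or 3.30-fold (2.07 to 5.12), at 2.83 CPM in head against 0.857 ± 0.162 CPM at 24 hpf. With the chia.6 counts added it was 3.44 (edgeR adjusted p 1.53e-04), or 10.9-fold (8.05 to 14.7). With the pool joined to the 24 hpf libraries the chia.4 change in head was 1.97 and no longer passed (edgeR adjusted p 0.0656; 1.53e-04 to 0.0656 over the alternatives).

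In larva, described without a test, chia.3 stood 1047-fold above the 24 hpf libraries (622 to 1920), a log2 change of 9.97. For chia.4 the log2 change was -0.08, and the direction depended on the setting: 0.39 with library totals only, 0.36 by FPKM and 2.43 with the chia.6 counts added. The share of all genes called in this contrast was 26.5% higher and 23.9% lower, 50.4% in all.

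In the pool 1 of 2 tested members was called, chia.4, which was lower, where 6.05% of all genes tested were called lower, 6.56% higher and 12.6% in either direction. Its log2 change was -3.15 (SE 0.78, edgeR adjusted p 0.0448). This call was lost in DESeq2 (adjusted p 0.140), with library totals only (0.0578), with only the pool and 24 hpf libraries fitted (0.0859), without 24 hpf sample 1 (0.112) and without sample 2 (0.105). With the chia.6 counts added the change was -0.905 (edgeR adjusted p 0.283; 0.0300 to 0.283 over the alternatives). The log2 change of chia.3 in the pool was 1.44 (SE 0.82, edgeR adjusted p 0.268) and did not pass. Annotation, depth and stage differ together between the pool and the 24 hpf libraries and cannot be told apart.

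**Figure D4:**
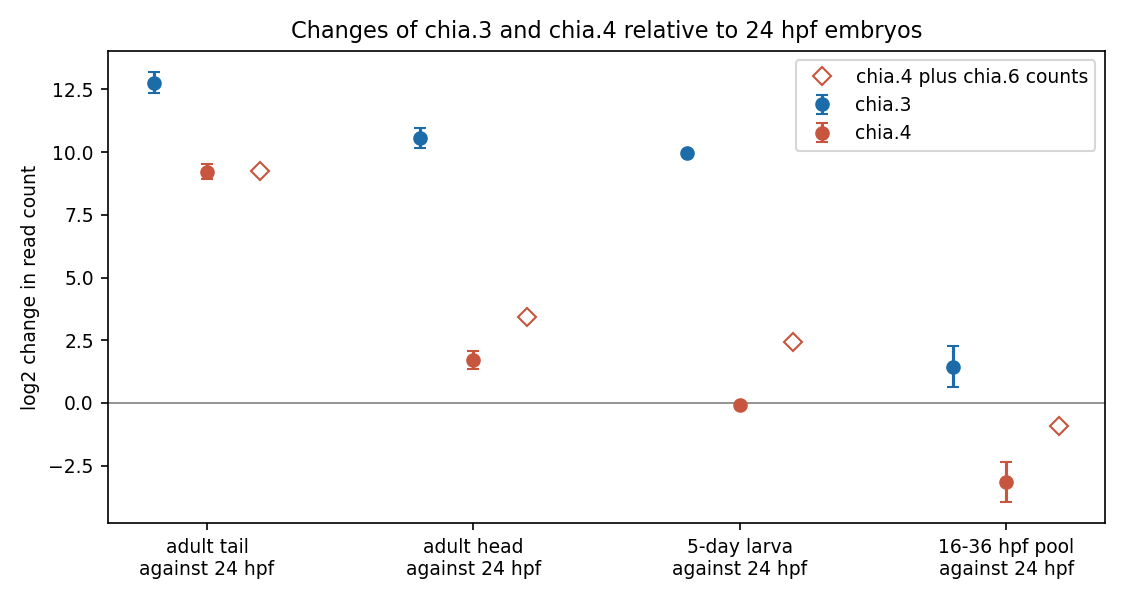
Log2 changes of chia.3 and chia.4 relative to the 24 hpf embryos in each other group, with SE bars for the tested groups; the larva points are a description with no bar, and open diamonds give chia.4 with the chia.6 counts added. The points of chia.3 lie at 12.77 in tail and 10.58 in head, while those of chia.4 lie at 9.23 in tail and 1.72 in head.

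The genes with a level pattern most like each member were found by the root mean square difference between log2(CPM + 0.5) profiles, each centred on its own mean over the 5 groups, among 14832 genes that reached 10 CPM in a group. For chia.3 the nearest was fabp10a, the liver fatty acid binding protein gene, at a difference of 0.44. It had 527 CPM in tail, 201 in head, 108 in larva and 0.273 in the pool, against 0.398 CPM on average at 24 hpf. Next came zgc:66382 (0.77), cel.2 (0.81), ela3l (0.82) and cel.1 (0.84). The cel genes code for carboxyl ester lipases and ela3l for an elastase, digestive enzymes made by the exocrine pancreas. Tail and head lay further apart in these genes than in chia.3, with cel.2 at 1066 CPM in tail and 50.2 in head.

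For chia.4 the nearest gene was ccna1, coding for cyclin A1, which in mouse is needed in male germ cell meiosis, at a difference of 0.34. It had 521 CPM in tail, 1.68 in head, 0.810 in larva and 0.182 in the pool, against 0.391 CPM at 24 hpf. Next came si:dkey-37o8.1 (0.41), si:ch211-234p6.13 (0.43), zgc:56685 (0.44) and zgc:158856 (0.45), which carry no descriptive name in the files. The difference between chia.3 and chia.4 themselves was 3.14, which put chia.4 at rank 669 for chia.3 and chia.3 at rank 3058 for chia.4. For chia.6, compared over the 4 single libraries only, C20H6orf58 (1 of 2) was nearest, at 0.10, followed by RNH1 (1 of 23), named after a ribonuclease inhibitor, at 0.10, and then si:ch211-170d8.5, si:dkey-182g1.2 and dio1, an iodothyronine deiodinase gene. By the same measure chia.3 stood at rank 11618 and chia.4 at rank 13065 of 14778 genes for chia.6. These ranks describe 5 points or fewer and carry no test. The lists behind them depended on the pseudocount, with 3 of 5 nearest genes of chia.3 shared at a pseudocount of 0.1 and 2 of 5 at a pseudocount of 2, and with 2 of 5 of chia.4 shared at 0.1.

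Organ marker levels are given beside those of the members, and their part in the chitinase values was not tested. Counts of markers called are set beside the shares of all genes tested, which for higher calls were 25.6% in tail, 32.2% in head, 26.5% in larva and 6.56% in the pool, and for lower calls 27.5%, 30.4%, 23.9% and 6.05%. Summed over 14 exocrine pancreas genes, levels were 10435 CPM in tail, 566 in head and 2070 in larva and 8.10 in the pool, against 7.84 to 10.7 CPM at 24 hpf. Of these 14 genes, 13 were called higher in tail, 13 in head and 13 in larva, and 1 in the pool, while ptf1a, a pancreas transcription factor gene, was called lower in tail and head. The trypsin gene try had 2163 CPM in tail, 116 in head and 575 in larva; cpb1, a carboxypeptidase gene, and amy2a, an amylase gene, reached 1312 and 1202 CPM in their highest group. In the pool 6 of the 14 were at 0, among them cel.1, cel.2 and ela3l, and at 24 hpf 2 to 4 of 14 were at 0.

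The 7 liver markers summed to 4603 CPM in tail, 1932 in head, 1764 in larva and 1456 in the pool, against 1661 to 3371 at 24 hpf. Called higher were 5 of 7 in tail, 3 in head, 3 in larva and 0 in the pool, and 1 was called lower in head. The counts in head and larva are near the shares of all genes called. The transferrin gene tfa had 2452 CPM in tail, and without it the other 6 summed to 2151 CPM in tail, 1001 in head, 780 in larva and 468 in the pool, against 383 to 788 at 24 hpf. The ceruloplasmin gene cp reached 501 CPM in tail.

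The 11 intestine markers summed to 1432 CPM in tail, 204 in head, 1075 in larva and 627 in the pool, against 1176 to 1606 at 24 hpf, and 7 were called higher in tail, 6 in head, 7 in larva and 0 in the pool. Called lower were 1 in tail, 4 in head, 2 in larva and 1 in the pool, which in head is near the 30.4% of all genes. Within the list fabp2, an intestinal fatty acid binding protein gene, reached 801 CPM on average at 24 hpf. The apolipoprotein gene apoa4 reached 507 CPM there, also its highest group. The sum at 24 hpf therefore rests largely on fabp2 and apoa4. In contrast vil1l, related to the brush border gene villin, had 207 CPM in tail, 34.0 in head and 205 in larva and 1.46 in the pool, against 0.166 to 0.706 CPM at 24 hpf.

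Markers of 4 further cell types were compared. For macrophages and granulocytes 12 symbols matched 22 genes, because mfap4 and mpeg1 each matched several related genes. These related genes had unlike patterns, and the sums and counts below include those with values in all libraries. The 18 macrophage and granulocyte genes summed to 374 CPM in tail, 307 in head, 131 in larva and 90.2 in the pool, against 63.7 to 79.0 at 24 hpf, with 10 called higher and 2 lower in tail, 10 and 1 in head, 7 and 2 in larva, and 2 and 1 in the pool. The tail sum includes 233 CPM of MFAP4 (3 of 12), which was at 0 in head, larva and pool, and without it the tail sum was 141 CPM, below the 307 in head. The lysozyme gene lyz reached 51.3 CPM in head, and MFAP4 (2 of 12), which is not in the sum because it has no 24 hpf value, had 48.5 CPM in tail. The 6 gill and ionocyte genes summed to 6.97 CPM in tail and 67.5 in head, against 69.6 to 79.9 at 24 hpf, with 6 of 6 called lower in tail. Among them ca15a and gcm2 were highest in head, at 19.4 and 15.1 CPM, and slc12a3 had 6.41 CPM in tail and 4.09 in head, against 30.4 on average at 24 hpf. The 2 olfactory genes, calb2a and ompb, summed to 0.225 CPM in tail and 53.8 in head. The 4 epidermis genes with values in all libraries, led by the keratin genes krt4 and krt5, summed to 4457 CPM in tail and 19601 in head, against 19954 to 24467 at 24 hpf, and cyt1, a keratin gene not listed at 24 hpf, reached 821 CPM in its highest group.

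Most of the ovary and oocyte markers were high in tail, the library in which chia.4 was high. This list was added after the genes nearest to chia.4 were seen, so it is given as values and counts only. Its 15 genes summed to 4905 CPM in tail, 9.23 in head, 7.90 in larva and 13.2 in the pool, against 16.6 to 21.1 at 24 hpf, and 11 of 13 tested were called higher in tail, where 25.6% of all genes were, while in head 0 were called higher and 4 lower. The egg coat genes zp3a.2 and zp3b had 1115 and 958 CPM in tail, and the oocyte linker histone gene h1m had 763. Of the regulators, zar1 had 531 CPM, bmp15 148, dazl 101 and gdf9 43.0 in tail, while figla was at 0 in every library. The ovarian genes foxl2, at 0.900 CPM in tail against 1.35 ± 0.393 at 24 hpf, and FOXL2 (1 of 2), at 1.35 against 3.59 ± 1.23, were not called in tail. The summed ovary and oocyte levels of head, larva and pool were each lower than those of all 24 hpf libraries. The chia.4 counts of head, larva and pool were 27, 8 and 1. The part of ovary tissue in the chia.4 or chia.3 values of any library was not tested.

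**Figure D5:**
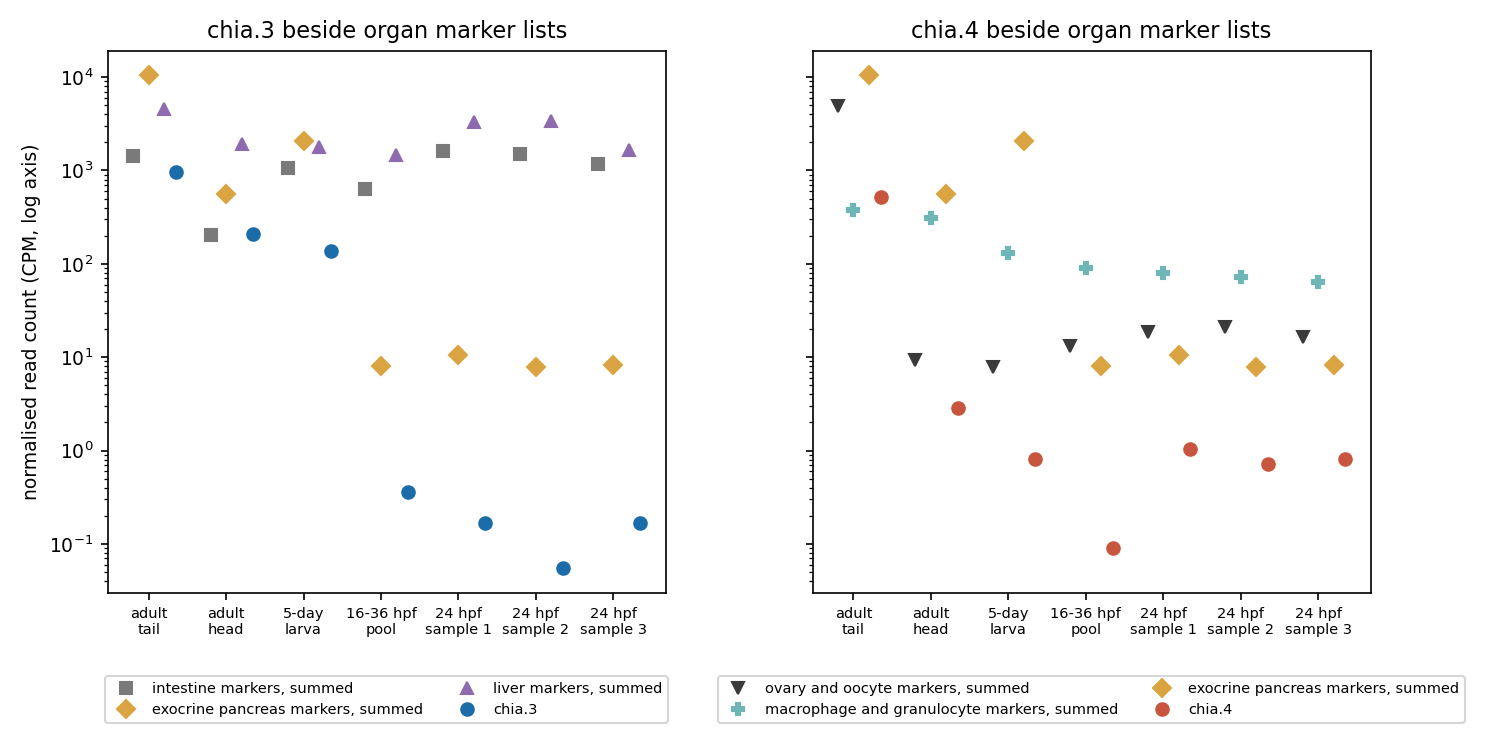
Levels of chia.3 (left) and chia.4 (right) beside summed organ marker lists in each of the 7 libraries, as CPM on a log axis. The pancreas sum and chia.3 are both far higher in tail, head and larva than in embryos. Their order differs, with the pancreas sum at 566 CPM in head and 2070 in larva, and chia.3 at 209 and 136. The intestine sum is not far higher, but at 24 hpf it rests largely on fabp2 (801 CPM) and apoa4 (507 CPM). Of its 11 genes, 7 were called higher and 1 lower in tail, 6 and 4 in head, and 7 and 2 in larva. Of all genes tested, 25.6%, 32.2% and 26.5% were called higher in these groups. The levels of chia.4 and the ovary and oocyte sum are high in tail alone, at 517 and 4905 CPM.

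Genes near the chitinases on the chromosome were also measured. Before chia.3 lie OVGP1 (4 of 4), at a gap of 10988 bases, and ZC3H11A, at 17608 bases. ZC3H11A had 126 CPM in tail, 84.4 in head, 71.3 in larva and 93.8 in the pool, against 61.9 on average at 24 hpf. OVGP1 (4 of 4), named after the oviductal glycoprotein, a chitinase-like protein of mammals, had 1.01 CPM from 9 counts in tail, was at 0 in head, larva and pool, and had 4 counts in all at 24 hpf. Whether this entry corresponds to chia.1 or chia.2, which lie beside chia.3 in RefSeq, was not tested. On chromosome 23, NFASC (2 of 2), at a gap of 8293 bases before chia.4, had 1.35 CPM in tail and 12.4 in head. The gene pm20d1.2, 127 bases after chia.6, had 8.996 CPM in tail and 18.3 in head. Further on, pm20d1.1, 27264 bases after chia.6, was highest in tail, with 29.8 CPM in tail, 0.629 in head, 10.7 in larva and 0.364 in the pool, against 0.903 at 24 hpf.

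The list of wider chitin and amino sugar genes held 31 symbols, of which 23 were matched and 22 tested. It covers chitin synthesis, chitinase-like proteins, chitin receptors, hexosaminidases, the synthesis and salvage of N-acetylglucosamine, and sialic acid metabolism. In tail 5 of 22 were called higher and 5 lower, with a median log2 change of 0.03, against -0.11 over all genes tested. In head 2 were higher and 8 lower (median -0.69, against -0.01), in larva 2 higher and 6 lower (-0.55, against -0.02), and in the pool 0 higher and 3 lower (-0.54, against -0.08). Of all genes tested 53.1% were called in tail, 62.6% in head, 50.4% in larva and 12.6% in the pool, so the list's 10, 10, 8 and 3 calls are near or below the background. The count in the pool was 1 without 24 hpf sample 1, 1 without sample 2 and 7 without sample 3. With the pool joined to the 24 hpf libraries the counts were 5 in tail, 5 in head and 1 in larva.

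The chitin synthase gene chs1, listed in the files as si:zfos-1762d12.1 and matched by its ID, had another order of libraries than the chitinase genes. It had 102 CPM in tail, 14.2 in head, 43.5 in larva and 0.910 in the pool, the last from 10 counts, against 30.1, 25.1 and 20.2 CPM in the 24 hpf samples. Its pool level was the lowest of the 7 libraries, with a log2 change of -4.78 (SE 0.48, edgeR adjusted p 0.00460), and the gene has the same interval in both annotations. In tail the change was 2.02 (SE 0.29, edgeR adjusted p 0.00125), which was lost with the pool joined to the 24 hpf libraries (2.41, adjusted p 0.142; up to 0.142 over the alternatives). Head and larva did not pass, at -0.83 (edgeR adjusted p 0.0660) and 0.79 (edgeR adjusted p 0.0624), although head passed without 24 hpf sample 3 (-1.05, adjusted p 0.0165; 0.0165 to 0.806 over the alternatives) and larva passed with library totals only (1.26, adjusted p 0.02002; 0.02002 to 0.486). Embryos at 24 hpf thus had 20.2 to 30.1 CPM of chs1, while their chia.3 reads came to 14 counts over 3 libraries.

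Of the other relatives, chid1, a family 18 member known as chitinase domain containing 1, had 27.2 CPM in tail, against 7.83 ± 0.802 CPM at 24 hpf, a log2 change of 1.80 (SE 0.29, edgeR adjusted p 0.00235). The chitin receptor gene fibcd1 had 8.30 CPM in larva and 5.24 in head, against 0.664 ± 0.380 CPM at 24 hpf, with log2 changes of 3.63 in larva (edgeR adjusted p 0.00297) and 2.97 in head (0.00524). FIBCD1 (1 of 2) had 7.90 CPM in larva, against 2.22 ± 0.331 at 24 hpf, a log2 change of 1.83 (edgeR adjusted p 0.0109). These receptor calls were lost with the pool joined to the 24 hpf libraries, at adjusted p of 0.0580 and 0.0806 for fibcd1 in larva and head and 0.0528 for FIBCD1 (1 of 2). Of 3 hexosaminidase genes, 1 was called higher and 1 lower in tail. The gene HEXDC had 20.8 CPM in tail, against 4.38 ± 1.61 at 24 hpf, a log2 change of 2.25 (edgeR adjusted p 0.00442). In contrast hexb had 29.35 CPM in tail, against 115 ± 21.8 at 24 hpf, a log2 change of -1.96 (edgeR adjusted p 0.00318).

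The 8 genes grouped as amino sugar salvage and breakdown include gne and NANP, which act in the synthesis of sialic acid. Of the 8 genes, 4 were called lower in tail, 6 in head, 5 in larva and 2 in the pool. Of all genes, 27.5%, 30.4%, 23.9% and 6.05% were called lower. The lower calls include NANP in tail (log2 change -1.85) and gne in head (-0.93). In tail 1, gne, was called higher (log2 change 0.83, edgeR adjusted p 0.0372), though lower in head, and NAGK was called in no group. The N-acetylglucosamine epimerase gene renbp had 7.31 CPM in tail, 4.30 in head and 7.09 in larva, against 50.2 ± 16.1 at 24 hpf (log2 changes -2.78, -3.54 and -2.82, edgeR adjusted p 0.00343, 0.00125 and 0.00373). The glucosamine-6-phosphate deaminase gene gnpda2 had 32.05 CPM in tail and 24.2 in head, against 179 ± 15.4 at 24 hpf (log2 changes -2.48 and -2.88, edgeR adjusted p 7.16e-04 and 3.56e-04). Its relative gnpda1 had 6.40 CPM in head and 16.1 in the pool, against 42.6 ± 7.01 at 24 hpf (-2.73 and -1.40, edgeR adjusted p 7.95e-04 and 0.0381). The sialic acid lyase gene npl had 4.72 CPM in tail, 5.37 in larva and 8.73 in the pool, against 39.6 ± 5.21 at 24 hpf (-3.07, -2.88 and -2.18, edgeR adjusted p 6.58e-04, 0.00106 and 0.0133). Without 24 hpf sample 1 or without sample 2 the pool calls of npl (adjusted p 0.0670 and 0.0764) and gnpda1 (0.115 and 0.113) were lost, and that of gnpda1 also with library totals only (-1.15, adjusted p 0.0738). With the pool joined to the 24 hpf libraries the npl calls in tail and larva were lost (adjusted p 0.0705 and 0.102). The intervals of fibcd1, FIBCD1 (1 of 2), HEXDC, hexb, renbp, gnpda1, gnpda2 and npl differ between the annotations.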

How the data were processed

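The deposited count tables hold raw read counts per gene, ending in HTSeq's 5 special counters, which were left out of library sizes. The deposited FPKM tables come from Cufflinks, per the file headers. Per the submitters' processing notes, the build was Zv9 and the tools were TopHat 1.4.1, Bowtie 0.12.7, Cufflinks 1.3.0, HTSeq 0.5.3p3 and CASAVA 1.4. The annotation release and strand setting were not given in the sources used here. Of 16 records, 7 came with files, and the 9 others are repeat records of the 24 hpf samples. It is not stated whether a 24 hpf count file pools its technical runs and read ends, so its counts, and counting intervals against it, may include repeat reads of the same library.

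The 28364 gene IDs shared by all libraries were fitted in 1 edgeR 4.0.16 model (R 4.3.3) of 5 groups with TMM scaling and 2 residual degrees of freedom. Of these IDs, 16558 have the same interval in both annotations. Calls against 24 hpf, and the shares of all genes called, therefore include genes whose intervals differ between the groups compared. A minimum count of 10 in filterByExpr kept 21128 of 24559 genes with a count. The SE is the log2 change divided by the square root of the quasi-likelihood F, which may understate the error of genes with few reads. The p-values measure the spread of the 3 samples of 24 hpf. DESeq2 1.42.0 was an alternative.

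The members, gene lists and tests were chosen with earlier results of these data known. Every chia. gene was named. From the chitin list the 4 largest called changes per comparison at 5 CPM or more were named, and from each marker list the 3 highest genes, with the 5 nearest patterns per member. Outside this rule, some genes were named after their values were seen. They are chid1, hexb, ptf1a, chs1 in groups other than the pool, foxl2, gne, NANP, NAGK, the neighbouring genes and the oocyte regulators. Symbols were matched without regard to case or to a suffix such as (1 of 2). Reads of paralogues and of overlapping genes can be split or dropped by the counting, so chia.4 and chia.6 are uncertain. Reads of chia.1 and chia.2, whose IDs are absent from both annotations, may likewise bear on the chia.3 counts, which was not tested. The planned comparison of protein sequences was not run, and no sequences are given here.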

Additional observations from a re-analysis of the deposited data

How the results depend on the processing

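No paired analysis was possible because only the 24 hpf group has more than 1 replicate, so the groups compared share fewer than 2 replicate numbers. The chia.3 calls in tail and head kept their direction and passed under all 10 tested alternatives, with log2 changes of 12.27 to 13.20 in tail and 10.16 to 11.13 in head, FPKM included. The chia.4 call in tail did so under 11 tested alternatives (9.11 to 9.65). Every alternative reuses the same single tail and head libraries, which are among those through which both genes passed the read filter. Passing is therefore no independent support for these calls. The number of members called in head was 1 with the pool joined to the 24 hpf libraries. The number called in the pool was 0 under library totals, DESeq2, the fit of only these groups and the added chia.6 counts, and 0 to 1 when 24 hpf samples were left out in turn; the cause was not tested. Over all genes, calls numbered 11227 in tail, 13233 in head, 10653 in larva and 2665 in the pool. With the pool joined they numbered 6671 in tail, 8359 in head and 3799 in larva, and those of the chitin list 5, 5 and 1. Leaving out 24 hpf samples gave 144 to 4825 calls in the pool over all genes, 457 without sample 1, 144 without sample 2 and 4825 without sample 3, and 1 to 7 in the chitin list. Library totals in place of TMM moved the median log2 change of all genes to 0.30 in tail, 0.53 in head, 0.44 in larva and 0.16 in the pool, against -0.11, -0.01, -0.02 and -0.08. Higher calls were then 6911 of 11408 in tail (5415 of 11227 with TMM), 8364 of 12880 in head (6806 of 13233), 7067 of 10241 in larva (5601 of 10653) and 1985 of 2732 in the pool (1386 of 2665). Of the 5 genes nearest to chia.3, 3 were shared at a pseudocount of 0.1 and 2 at a pseudocount of 2, and for chia.4 2 were shared at 0.1. Alternative values were compared for the named genes of the chitin list, without hexb, gne, NANP and NAGK. Of these values, 201 were on the same side of the threshold, 11 lost a call and 4 gained one, with 0 reversed in direction. CPM of the members moved by more than the replicate spread or counting interval in 4 of 18 values under library totals and 2 of 18 under DESeq2 size factors. Depth limits the embryo values: chia.3 at 24 hpf rests on 14 counts over 3 libraries and chia.4 in the pool on 1 count. DESeq2 and edgeR's newer quasi-dispersion were run for the tests. The newer quasi-dispersion was chosen after seeing the data, as were the added chia.6 counts, the FPKM ratios, the ovary and oocyte list and the chia.6 patterns. So were the larva and chitin list counts under each alternative, DESeq2 included.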
